A study of Mus musculus with 31 samples.

Results

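The comparison described here set interscapular brown adipose tissue (iBAT) against inguinal white adipose tissue (iWAT) of mice kept at thermoneutrality, the ambient temperature at which a mouse needs no extra heat production. Its members were the 3 iBAT libraries iBAT516, iBAT517 and iBAT518 and the 4 iWAT libraries iWAT516, iWAT517, iWAT518 and iWAT522, chosen from the labels as the day 0 libraries of these depots, 7 of 31 libraries in all. All 7 came from male C57BL/6J mice aged 8 weeks that had been acclimated at thermoneutrality for 8 days and were killed without exposure to 4 °C, and no allele, transgene or drug is given for them. The wider study also holds epididymal white fat (eWAT) and days 2 and 4 of exposure to 4 °C. Each library was an Illumina RNA-seq library from 1 µg of total RNA of whole tissue, extracted with Trizol. The labels do not say that libraries of a group came from separate animals, so p-values measure the spread between these samples only.

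Brown adipocytes are packed with mitochondria and carry uncoupling protein 1 (UCP1), which lets protons re-enter the mitochondrial matrix without making ATP, so that oxidised fat and sugar leave the cell as heat. White adipocytes store triglyceride and secrete hormones such as leptin. Inguinal fat is a white depot in which UCP1-bearing beige adipocytes can appear in the cold, and the subcutaneous pad also encloses a lymph node. Brown fat between the shoulder blades arises from a myogenic part of the embryo and lies against the muscles of the back. The comparison at thermoneutrality therefore reads the difference between depots when cold does not drive heat production.

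Counts per library came to 2.71, 3.75 and 3.76 M in iBAT516, iBAT517 and iBAT518 and to 3.42, 3.42, 1.51 and 2.83 M in iWAT516, iWAT517, iWAT518 and iWAT522. Every set of values below follows that order. Levels are counts scaled to a common library size (CPM), here on sizes scaled by the trimmed mean of M values (TMM). They depend on transcript length and are therefore compared between depots, not between genes. Differences are log2 of iBAT over iWAT with a standard error (SE), and adjusted p-values come from edgeR's quasi-likelihood test over 9164 genes with Benjamini-Hochberg adjustment and a threshold of 0.05.

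The library iWAT522 stood apart from the other iWAT libraries. On the first principal component, which held 65% of the variance, the iBAT libraries lay from -94.9 to -66.6, iWAT516, iWAT517 and iWAT518 from 74.1 to 93.2, and iWAT522 at 7.18. It also held transcripts that were scarce in the other 3. Counts of Prm1, which packs sperm DNA, were 5, 2, 24 and 655 in the iWAT libraries. Counts of Krt8, a keratin of simple epithelia, were 8, 3, 3 and 178, and those of Tcf21, a transcription factor of visceral fat progenitors, were 0, 0, 2 and 26. In day 0 eWAT these genes had 46, 62 and 182 counts (Prm1), 2092, 715 and 252 (Krt8) and 61, 45 and 49 (Tcf21). Hoxc10, an inguinal marker, had 277, 76, 195 and 297 counts in the iWAT libraries and 15, 18 and 8 in day 0 eWAT. Other genes set iWAT522 apart from the other iWAT libraries, such as Krt17 (46632, 24209, 11191 and 279 counts) and Hoxc8 (97, 171, 49 and 21). The tissue content of iWAT522 was not tested. The sample was kept under its label. Group counts are given below with all 4 iWAT libraries, and for some lists also without iWAT522. Of 121 genes named below that passed the test, 85 also passed with each library left out in turn. The other 36 did not pass in at least 1 of these 7 fits, and where one is named below, the libraries whose removal ended the call are given.

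At day 0, 888 genes (9.69% of those tested) were higher in iBAT and 1039 (11.3%) were higher in iWAT. Without iWAT522 the counts were 1665 and 1689, and with iWAT522 as the only iWAT library, whose spread is then assumed to be that of the iBAT libraries, they were 352 and 792. The median log2 difference over all tested genes was -0.04. Scaling by library size alone moved that median to -0.41, and 558 genes were then higher in iBAT and 1566 in iWAT. Counts of list members below are to be read beside the 9.69% and 11.3% of all tested genes.

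**Figure D1:**
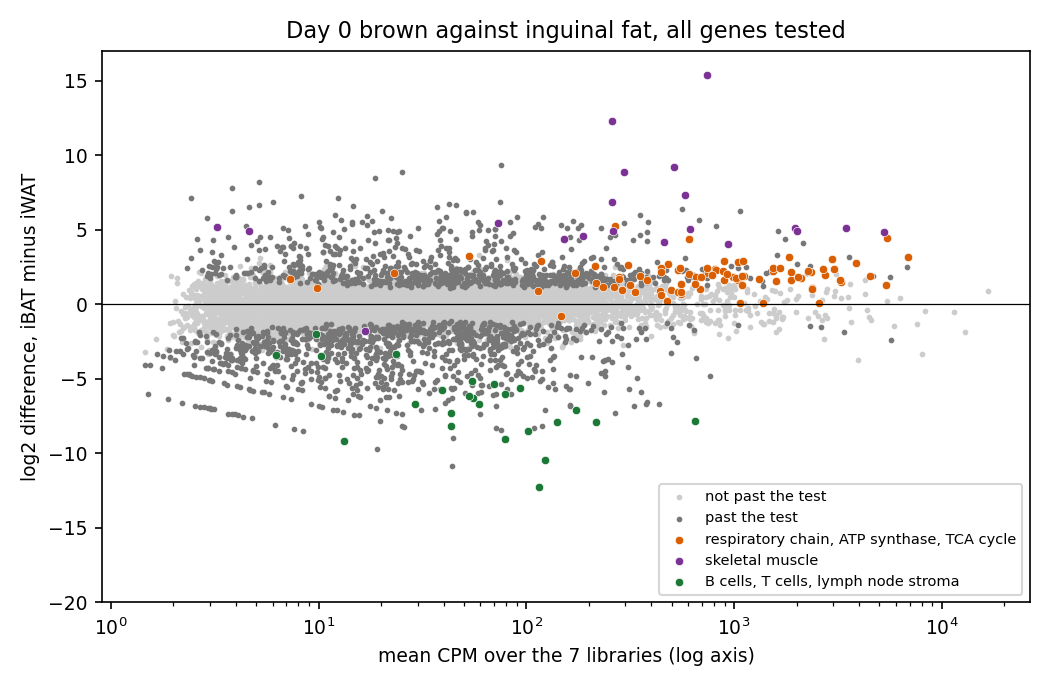
The log2 difference (iBAT over iWAT) of each tested gene is plotted against its mean level in CPM on a log axis, with genes past the test in dark grey and 3 kinds of gene lists in colour. Genes past the test lie on both sides of 0, 888 above and 1039 below, with muscle genes up to 15.36 and genes of lymphocytes and lymph node stroma down to -12.25.

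The tissue labels were checked against defining genes. Ucp1 (chr8:83290348-83298456), the uncoupling protein itself, was at 10019.9, 5299 and 7986 CPM in iBAT and 232, 507, 77.2 and 47.2 CPM in iWAT. The lowest iBAT library was above the highest iWAT library, and the log2 difference was 5.17 (SE 0.81, adjusted p = 0.00184). Within iWAT the Ucp1 level ran over a wide range, from 47.2 in iWAT522 to 507 in iWAT517, and without iWAT522 the difference was 4.82. Zic1, a transcription factor of classical brown fat, had 54, 50 and 72 counts in iBAT and no row in the iWAT table, so it was not in the fit. Lep, which encodes leptin, was at 22.3, 15.97 and 17.2 CPM in iBAT and 31.8, 72.6, 9.42 and 44.5 CPM in iWAT. The 2 depots overlapped for Lep, with iWAT518 below every iBAT library, and the difference did not pass (-1.11, SE 0.58, adjusted p = 0.196).

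The list of brown adipocyte and thermogenic genes held 30 genes, of which 18 had enough counts to be tested. Of these, 13 were higher in iBAT and 0 were higher in iWAT, with a median log2 difference of 2.82 against -0.04 over all tested genes. Without iWAT522, 15 of the 18 were higher in iBAT, and with iWAT522 as the only iWAT library 14 were. Across all settings tried the number lay between 9 and 15. A list is said below to have 0 members higher in a depot from edgeR. In 30 of 33 such cases 0 members also had an unadjusted p below 0.05 in that direction and 0 were called by DESeq2 or limma voom, and the other 3 are named where they occur.

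Genes of the lipid droplet and of fatty acid handling were among them. Cidea (chr18:67343564-67367794), which enlarges lipid droplets by moving lipid between them, was at 534.6, 251 and 285 CPM in iBAT and 10.1, 16.4, 13.2 and 23.5 CPM in iWAT. The iBAT libraries lay far above the iWAT libraries, which were close to one another, and the log2 difference was 4.49 (SE 0.47, adjusted p = 3.76e-04). Fabp3, a cytosolic fatty acid binding protein of oxidative tissues, was at 1609.8, 934 and 2081 CPM in iBAT and 27.9, 75.4, 5.02 and 11.3 CPM in iWAT (5.67, SE 0.85, adjusted p = 0.00147). Slc27a2, an acyl-CoA synthetase and fatty acid transporter, was at 82.7, 124 and 57.2 CPM in iBAT and 5.63, 7.93, 15.1 and 3.96 CPM in iWAT (3.47, SE 0.52, adjusted p = 0.00134). For both genes the depots did not overlap, and for Fabp3 the ratio of the highest to the lowest library was larger in iWAT than in iBAT. Elovl3, which elongates saturated fatty acids, was at 69.02, 18.8 and 99.8 CPM in iBAT and 5.07, 12.9, 0 and 0.609 CPM in iWAT. Its iBAT libraries were all above the iWAT libraries (3.65, SE 0.97, adjusted p = 0.0232), but the call ended without iBAT516, iBAT518 and iWAT516, at log2 differences of 3.16 to 3.63.

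Genes of mitochondrial fuel choice and uncoupling followed. Pdk4, a kinase that shuts off pyruvate dehydrogenase, was at 3139, 4242 and 4152 CPM in iBAT and 104, 111, 201 and 316 CPM in iWAT (4.39, SE 0.52, adjusted p = 4.89e-04). Cox7a1, the heart and muscle form of a complex IV subunit, was at 1647, 1099.9 and 1256 CPM in iBAT and 105, 69.2, 37.05 and 41.4 CPM in iWAT (4.39, SE 0.49, adjusted p = 4.58e-04). For both the depots were far apart, and the ratio of the highest to the lowest library was larger in iWAT than in iBAT. Ucp3, an uncoupling protein homologue of muscle and brown fat, was low but even, at 13.3, 14.1 and 15.4 CPM in iBAT and 1.41, 0.992, 1.26 and 1.83 CPM in iWAT (3.34, SE 0.46, adjusted p = 9.61e-04). Dio2, which converts thyroxine into active thyroid hormone, was at 17.6, 75.5 and 33.3 CPM in iBAT and 1.41, 13.4, 1.26 and 1.83 CPM in iWAT. Its iBAT libraries lay above all iWAT libraries, with iWAT517 the highest of the latter (3.15, SE 0.84, adjusted p = 0.0232). The Dio2 call ended without iBAT517, iBAT518, iWAT516 and iWAT518, at 2.38 to 3.32. Ebf2, a transcription factor that marks brown and beige preadipocytes, was at 16.7, 11.9 and 11.8 CPM in iBAT and 3.10, 3.22, 1.88 and 4.26 CPM in iWAT (2.06, SE 0.45, adjusted p = 0.00934). The Ebf2 call ended without iBAT516, at 1.86.

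**Figure D2:**
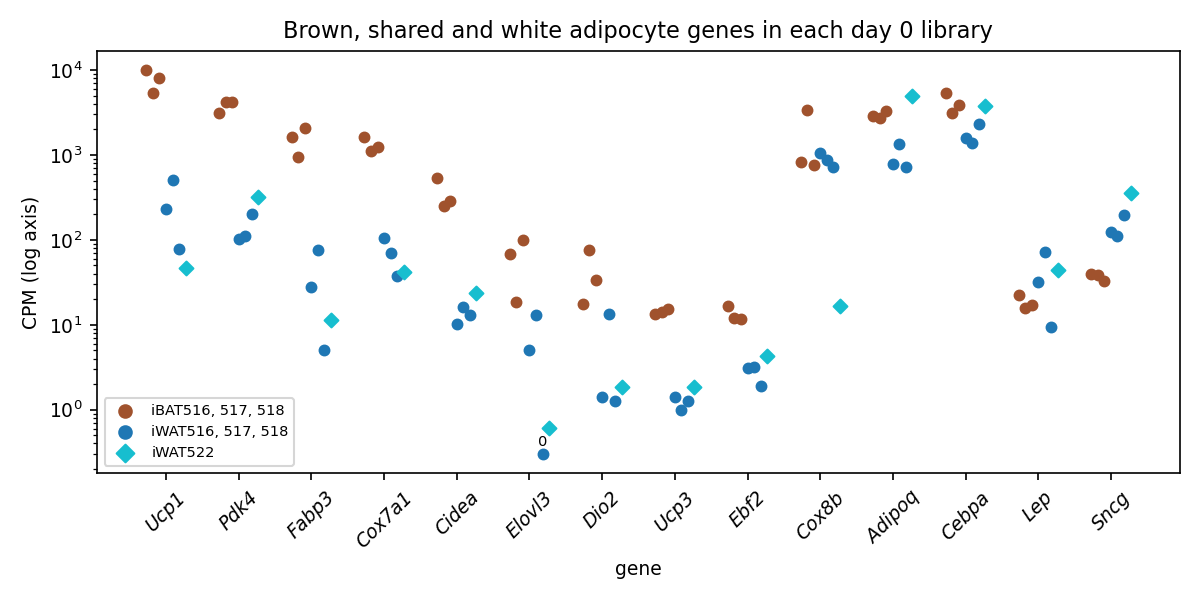
Levels of 14 genes in CPM on a log axis are shown for each of the 3 iBAT and 4 iWAT libraries, 1 point per library, with iWAT522 as a diamond and a level of 0 drawn at the lower edge. For Ucp1, Cidea, Pdk4, Cox7a1 and Fabp3 every iBAT point lies above every iWAT point, while the 2 depots overlap for Lep and Adipoq.

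Of 18 listed white adipocyte genes 11 were tested, and 1 was higher in iWAT and 1 in iBAT, with a median of -1.11. These shares are near those over all tested genes. Sncg, a synuclein of white adipocytes, was at 39.9, 38.8 and 32.96 CPM in iBAT and 123, 109.6, 198 and 353 CPM in iWAT (-2.39, SE 0.50, adjusted p = 0.0074). Gpx3, a secreted glutathione peroxidase, was in the opposite direction at 5833, 11459 and 6729 CPM in iBAT and 2116, 797, 2164 and 3462 CPM in iWAT (1.91, SE 0.53, adjusted p = 0.0264), and its call ended without iBAT516, iBAT517, iBAT518, iWAT516 and iWAT518, at 1.53 to 2.07. Fabp5, a fatty acid binding protein of skin, macrophages and white fat, was at 216, 218 and 400.1 CPM in iBAT and 734, 1047, 1445 and 453 CPM in iWAT (-1.73, SE 0.50, adjusted p = 0.0322). The Fabp5 call held without iWAT522 and ended on leaving out any of the other 6 libraries, at -1.50 to -2.07.

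Of 20 listed genes that both kinds of adipocyte express, 14 were tested, with a median of 0.72. Of these, 2 were higher in iBAT (14.3%, against 9.69% of all tested genes), and without iWAT522 6 were. Adipoq, which encodes the hormone adiponectin, was at 2853, 2707 and 3294.3 CPM in iBAT and 786, 1354, 731 and 4964 CPM in iWAT. Its highest library of all 7 was iWAT522 and the other 3 iWAT libraries lay below every iBAT library. The difference was 0.59 (SE 0.66, adjusted p = 0.545) with iWAT522 and 1.62 (adjusted p = 0.0102) without it. Cebpa, a master transcription factor of adipocyte formation, was at 5432, 3157 and 3834 CPM in iBAT and 1564, 1365, 2336 and 3788 CPM in iWAT, with iWAT522 inside the iBAT range (0.87, SE 0.47, adjusted p = 0.205). Without iWAT522 the Cebpa difference was 1.23 (adjusted p = 0.0418). Cebpb, its relative induced by cyclic AMP, was at 176, 337 and 269.8 CPM in iBAT and 6.20, 15.4, 19.5 and 108 CPM in iWAT (2.81, SE 0.82, adjusted p = 0.0333). Cebpb passed without iWAT522 at 4.27, and leaving out any of the other 6 libraries ended its call, at 2.43 to 3.02. The insulin-sensitive enzyme Gpd1, which makes the glycerol phosphate backbone of triglyceride, was even within each depot, at 1944, 2111 and 1960.0 CPM in iBAT and 582, 699.8, 421 and 623 CPM in iWAT (1.79, SE 0.37, adjusted p = 0.00718).

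The short list of beige adipocyte markers held 10 genes, 6 of them tested. P2rx5, an ATP-gated ion channel used as a marker of brown and beige fat, was at 193, 261 and 101 CPM in iBAT and 7.89, 6.94, 8.79 and 42.3 CPM in iWAT (3.48, SE 0.70, adjusted p = 0.00631). Epsti1, which is also induced by interferon, was in the opposite direction, at 10.7, 10.02 and 5.14 CPM in iBAT and 377, 579, 323 and 73.7 CPM in iWAT (-5.29, SE 0.75, adjusted p = 0.00114). For P2rx5 the highest iWAT library was iWAT522, and for Epsti1 iWAT522 was the lowest.

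Transcription factors that mark where along the body a tissue arose also separated the depots. The Hox genes lie in clusters whose order along the chromosome matches the order of their domains from head to tail, with low numbers anterior and high numbers posterior. Of 39 listed Hox genes 16 were tested, 5 were higher in iBAT and 2 in iWAT, with a median of 0.82. Without iWAT522 the counts were 7 and 2, and with iWAT522 as the only iWAT library they were 0 and 2. Strand use in the counting is not recorded, so reads of neighbouring or antisense transcripts in these dense clusters cannot be told apart.

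Hoxc10 (chr15:102966796-102971898) was at 0, 0.313 and 0 CPM in iBAT and 78.03, 18.8, 122 and 90.5 CPM in iWAT. Only 1 read was counted over the 3 iBAT libraries against 845 over the 4 iWAT libraries, a ratio of 599 in favour of iWAT with an exact 95% counting interval of 107 to 23686. This interval covers counting error only. The fitted value of -8.97 depends on the prior count for so low a group (SE 1.03, adjusted p = 4.78e-04), and iWAT522 was the second highest library. Hoxc8 (chr15:102990539-102994275), the next tested gene of that cluster, was at 3.43, 5.95 and 8.77 CPM in iBAT and 27.3, 42.4, 30.8 and 6.40 CPM in iWAT. The 3 other iWAT libraries lay above the iBAT range while iWAT522 lay within it (-2.12, SE 0.64, adjusted p = 0.0386). Without iWAT522 the Hoxc8 difference was -2.45 (adjusted p = 0.00109), and leaving out any 1 of the other 6 libraries ended the call, at -1.86 to -2.47. Hoxc9 had a row in the iWAT table only, with 11, 14, 4 and 2 counts.

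The 5 Hox genes higher in iBAT were anterior ones. Hoxa5 (chr6:52201754-52204587) was at 42.4, 47.9 and 42.3 CPM in iBAT and 7.61, 9.92, 6.28 and 14.6 CPM in iWAT, and the depots did not overlap (2.18, SE 0.40, adjusted p = 0.00396). Hoxa4, its neighbour, was at 38.6, 60.4 and 46.9 CPM in iBAT and 5.35, 5.45, 6.28 and 16.4 CPM in iWAT (2.52, SE 0.49, adjusted p = 0.00511). Both passed with each library left out in turn. Hoxc4 (chr15:103018097-103036856) was at 28.7, 27.9 and 24.5 CPM in iBAT and 1.69, 1.98, 1.26 and 13.1 CPM in iWAT. Its 3 lower iWAT libraries lay below 2 CPM while iWAT522 lay between them and iBAT (2.54, SE 0.73, adjusted p = 0.0313). The Hoxc4 difference was 3.94 (adjusted p = 4.73e-05) without iWAT522, and leaving out any other library ended the call, at 2.22 to 2.62. Hoxa2 (1.65) and Hoxc5 (1.80) also passed. The Hoxa2 call ended without any of the 6 libraries other than iWAT522 (1.49 to 1.75), and that of Hoxc5 without iBAT516, iBAT517, iBAT518, iWAT516 and iWAT518 (1.48 to 2.00).

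The remaining tested Hox genes did not pass. Hoxa3 (1.85), Hoxb2 (0.64), Hoxb4 (1.02) and Hoxd9 (1.00) had positive differences. Those of Hoxc6 (-1.14), Hoxa7 (-0.94), Hoxb6 (-0.38), Hoxb7 (-0.86) and Hoxb8 (-1.72) were negative. With the exception of Hoxd9, and of Hoxb6 when the label number was fitted as a block (0.33), every tested Hox gene of number 5 or lower had a positive difference and every one of number 6 or higher a negative one, under each setting in which it could be tested. With iWAT522 as the only iWAT library the median over the list was 0.09 in place of 0.82.

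**Figure D3:**
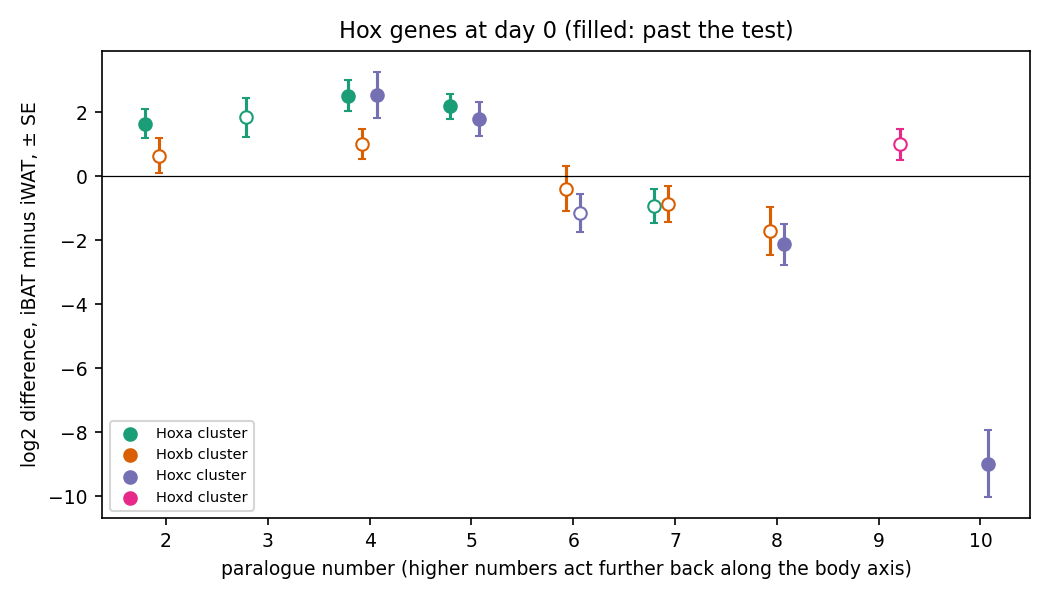
The log2 difference (iBAT over iWAT) with its SE is drawn as a point with a bar for each of the 16 tested Hox genes against its number within the cluster, coloured by cluster and filled where it passed the test. Values run from 2.54 for Hoxc4 down to -8.97 for Hoxc10, and the sign changes between numbers 5 and 6 for all but Hoxd9.

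Outside the Hox clusters, 36 transcription factors of depot identity were listed and 16 were tested, of which 4 were higher in iBAT and 1 in iWAT (median 0.48). Without iWAT522 the counts were 5 and 3. Irx5, an Iroquois factor, was at 13.7, 14.7 and 31.1 CPM in iBAT and 0, 0.744, 0 and 1.83 CPM in iWAT, with no count in either iWAT516 or iWAT518 (4.74, SE 0.82, adjusted p = 0.00301). Tbx5 (2.78), a T-box factor of the forelimb and heart field, and Tbx15 (2.15), a T-box factor of subcutaneous and brown fat, were also higher in iBAT. Tbx15 was at 69.9, 38.5 and 133 CPM in iBAT and 8.17, 23.3, 21.98 and 19.5 CPM in iWAT, and its call ended without iBAT518 (1.59). The Tbx5 call ended without iBAT517 and iBAT518 (2.61 to 2.73). Irx2, of the same Iroquois family as Irx5, was in the opposite direction, at 0.857, 0.313 and 0.907 CPM in iBAT and 7.61, 11.4, 8.16 and 0.609 CPM in iWAT (-3.27, SE 0.92, adjusted p = 0.0297). Only iWAT522 among the iWAT libraries lay within the iBAT range for Irx2. With 1 library left out, Irx2 had enough counts to be tested in only 4 fits. The call ended in 3 of them, those without iBAT516, iBAT517 and iBAT518 (-2.96 to -3.53). Lhx8, a proposed brown fat marker, was at 14.1, 10.6 and 12.7 CPM in iBAT and 2.54, 0.744, 8.16 and 6.40 CPM in iWAT and did not pass (1.55, SE 0.66, adjusted p = 0.118).

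Complexes I to IV pass electrons from NADH and succinate to oxygen, all but complex II pump protons, and ATP synthase or UCP1 lets the protons back. Complex I had 21 of 31 tested subunits higher in iBAT and 0 higher in iWAT, with a median of 2.07 (36 listed). Complexes II and III with cytochrome c had 9 of 14 (median 1.85, 14 listed). Complex IV had 9 of 13 (median 2.09, 16 listed). ATP synthase with its inhibitor had 7 of 13 (median 1.35, 16 listed), with 0 higher in iWAT in each of these lists. The summed level of the complex I list was 42313, 36712 and 31562 CPM of the plain total count in iBAT and 11342, 10202, 12725 and 13432 CPM in iWAT. That of ATP synthase was 37204, 29708 and 31040.4 CPM against 16626, 9997, 13318 and 19479 CPM. In both sums no iWAT library reached the lowest iBAT library. With iWAT522 as the only iWAT library the numbers higher in iBAT were 13 for complex I, 5 for complexes II and III, 7 for complex IV and 1 for ATP synthase. Without it they were 23, 10, 9 and 9.

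Single subunits show the size of these differences. Uqcrc1, a core protein of complex III, was at 2259, 1823 and 1207 CPM in iBAT and 225, 210.2, 343 and 158 CPM in iWAT (2.91, SE 0.43, adjusted p = 0.00131). Sdhb, the iron-sulphur subunit of complex II, was at 1132, 1151 and 804 CPM in iBAT and 180.3, 129.6, 159 and 291 CPM in iWAT (2.43, SE 0.41, adjusted p = 0.00253). For both, every iBAT library was above every iWAT library. Ndufb9, an accessory subunit of complex I, was at 10457, 5947 and 6178 CPM in iBAT and 583, 639.5, 571 and 2580.5 CPM in iWAT, with iWAT522 the highest iWAT library (2.78, SE 0.62, adjusted p = 0.0109). Ndufc2 (2.90), Ndufab1 (2.84) and Ndufb8 (2.72) also passed. Ndufa1, a subunit of the membrane arm, was at 813, 1761 and 713 CPM in iBAT and 1390.2, 968, 1739 and 84.98 CPM in iWAT, so that its lowest library of all 7 was iWAT522 and the depots overlapped (0.07, SE 0.77, adjusted p = 0.955). Cox6b1 of complex IV also had its lowest level in iWAT522, at 1682, 5005 and 1307 CPM in iBAT and 3969.8, 2567, 3316 and 139.5 CPM in iWAT (0.09, SE 0.86, adjusted p = 0.947). Cytochrome c itself, Cycs, was at 3739, 3041 and 2527 CPM in iBAT and 465, 594, 435 and 820.0 CPM in iWAT (2.42, SE 0.41, adjusted p = 0.00247).

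Promoters were searched for short sequences of factors of mitochondrial genes. Nuclear respiratory factor 1 (NRF1) is a transcription factor of nuclear genes for mitochondria, and its site is palindromic. The letters GCGCATGCG were searched on both strands in windows from 250 bases before to 50 after each RefSeq gene start. They were present in 1.75% of all promoters (575 of 32851), in 3.74% of those of tested genes (314 of 8404) and in 12.4% of those of the tested respiratory, citrate cycle and beta-oxidation genes (11 of 89 windows of 85 genes). Of genes higher in iBAT 4.65% held them (37 of 796) and of genes higher in iWAT 1.70% (16 of 943). The site of the oestrogen-related receptors, TNAAGGTCA, was in 2 of the 89 windows, in 0.754% of those of genes higher in iBAT, 1.06% of those higher in iWAT, 0.666% of tested genes and 1.28% of all promoters. These shares are a description without a test, and a match is no evidence that the factor binds. The 250 bases before the start of 5 of these genes follow, from RefSeq (GRCm38.p6), all on the minus strand and written 5′ to 3′ in the direction of the gene, with the match in capitals, extended where a match on the other strand overlaps it. They lie at chr3:79628768-79629017 (Etfdh), chr6:50566570-50566819 (Cycs), chr3:153944644-153944893 (Acadm), chr9:44920743-44920992 (Atp5l) and chr5:115348959-115349208 (Cox6a1). The first capital lies 128, 61, 159, 241 and 162 bases before the start, in that order.
Etfdh: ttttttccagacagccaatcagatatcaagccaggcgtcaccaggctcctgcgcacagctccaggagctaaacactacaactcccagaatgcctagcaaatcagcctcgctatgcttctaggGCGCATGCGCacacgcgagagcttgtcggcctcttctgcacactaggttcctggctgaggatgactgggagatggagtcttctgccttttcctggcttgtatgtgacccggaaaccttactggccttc
Cycs: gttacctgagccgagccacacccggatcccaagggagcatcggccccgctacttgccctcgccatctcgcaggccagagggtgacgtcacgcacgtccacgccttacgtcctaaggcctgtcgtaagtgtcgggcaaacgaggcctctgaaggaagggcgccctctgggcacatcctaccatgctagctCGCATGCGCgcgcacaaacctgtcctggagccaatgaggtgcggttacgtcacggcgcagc
Acadm: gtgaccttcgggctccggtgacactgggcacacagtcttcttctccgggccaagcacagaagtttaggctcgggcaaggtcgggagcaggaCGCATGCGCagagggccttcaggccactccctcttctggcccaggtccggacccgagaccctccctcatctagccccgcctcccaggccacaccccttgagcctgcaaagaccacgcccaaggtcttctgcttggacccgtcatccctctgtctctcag
Atp5l: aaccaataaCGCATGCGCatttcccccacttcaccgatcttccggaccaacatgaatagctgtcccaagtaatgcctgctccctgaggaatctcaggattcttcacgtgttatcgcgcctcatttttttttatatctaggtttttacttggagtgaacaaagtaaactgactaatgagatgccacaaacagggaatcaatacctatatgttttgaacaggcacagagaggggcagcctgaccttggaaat
Cox6a1: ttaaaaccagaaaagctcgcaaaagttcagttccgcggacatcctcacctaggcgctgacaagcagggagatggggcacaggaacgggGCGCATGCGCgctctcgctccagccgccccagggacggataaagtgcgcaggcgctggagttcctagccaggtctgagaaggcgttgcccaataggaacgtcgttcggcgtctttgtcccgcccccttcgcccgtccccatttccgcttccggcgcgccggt

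The 5 genes with these promoters have different places in the same pathway. Etfdh, which feeds electrons from beta-oxidation into the chain, was at 2853, 1643 and 1988 CPM in iBAT and 501, 283, 441 and 315 CPM in iWAT (2.49, SE 0.41, adjusted p = 0.0022). Acadm, the medium-chain acyl-CoA dehydrogenase, had a log2 difference of 2.28 (adjusted p = 0.00902). Atp5l, a membrane subunit of ATP synthase, was at 12089, 4086 and 6990.3 CPM in iBAT and 2276, 1200.0, 1656 and 3213 CPM in iWAT (1.89, SE 0.51, adjusted p = 0.0242). Cox6a1, the widely expressed form of its complex IV subunit, was at 490.0, 819.9 and 545 CPM in iBAT and 168, 204, 256 and 175 CPM in iWAT (1.62, SE 0.38, adjusted p = 0.0124). The 5 were chosen from members of these lists past the test, of which only Cpt1a was higher in iWAT. That all 5 were higher in iBAT therefore says nothing of the site. The call of Atp5l ended without iBAT516, iBAT518, iWAT516, iWAT517 and iWAT518 (1.39 to 1.97) and that of Cox6a1 without iBAT517 (1.33).

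Some of these proteins exist in forms for heart, muscle and brown fat and forms for other tissues, and the ratio of the 2 transcripts within a library does not depend on scaling. The log2 ratio of Cox6a2 to Cox6a1 counts, with 1 added to each, was 0.03, -1.34 and 0.85 in iBAT and -6.64, -2.42, -5.87 and -3.19 in iWAT. The means were -0.15 ± 1.11 (SD, n = 3) and -4.53 ± 2.04 (SD, n = 4), a difference of 4.38 (exact two-sided permutation p = 0.0571, 0.0686 after adjustment over 6 ratios). With 3 against 4 libraries 0.0571 is the smallest p the design allows, so none of the 6 ratios could pass 0.05. The adenine nucleotide carriers Slc25a4 and Slc25a5 had a log2 ratio of 1.70 ± 0.60 (SD, n = 3) in iBAT and -1.79 ± 1.55 (SD, n = 4) in iWAT, a difference of 3.49. The fatty acid binding proteins Fabp3 and Fabp4 had -2.57 ± 0.46 (SD, n = 3) and -9.35 ± 1.09 (SD, n = 4), a difference of 6.79. For Ucp1 over Ucp2 the difference was 6.07 and for Ucp3 over Ucp2 it was 3.47, and in these 5 ratios the depots did not overlap. Cox8b over Cox8a was the exception, with -1.36 ± 0.88 (SD, n = 3) and -2.19 ± 3.13 (SD, n = 4), a difference of 0.83 (exact permutation p = 0.971) that was -0.70 without iWAT522. Cox8b was at 824, 3425 and 757 CPM in iBAT and 1063, 881, 713 and 16.4 CPM in iWAT, and the iWAT522 value was the lowest of all 7.

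Striated muscle also expresses Cox6a2, Fabp3, Slc25a4, Cox7a1, Ucp3 and Pdk4, and its genes moved in the same direction between the depots. The summed level of the skeletal muscle list was 25809.7, 19014 and 60732 CPM in iBAT and 50.02, 3544, 431 and 1714 CPM in iWAT. Within iBAT, Cox6a2 (502, 323 and 981 CPM), Fabp3 (1610, 934 and 2081 CPM) and Slc25a4 had the same order of libraries as that sum, whereas Cox7a1, Ucp3 and Pdk4 did not. Of the 18 tested brown adipocyte genes 5 had that order, Elovl3 and Fabp3 among them and Ucp1 and Cidea not. Of the 20 tested muscle genes 16 had it, but these genes are part of the sum that sets the order. Lists of other kinds differed, with 0 of 31 for complex I, 0 of 14 for the tricarboxylic acid cycle, 10 of 30 for mitochondrial carriers and 6 of 10 for complement. Pdk2, Slc25a34, Slc25a42, Pgam2 and Perm1, named below, also had that order. With so few libraries genes can share an order by chance, and the share among all tested genes is not given. These numbers therefore cannot show whether muscle contributed. Between iBAT518 and iBAT517 the median log2 difference of the muscle list was 1.72 and that of the brown adipocyte list 0.05. The part of muscle in these results was not tested.

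Mitochondrial ribosomal proteins, which build the organelle's own ribosome, had 17 of 70 tested members higher in iBAT and 0 in iWAT (74 listed), with a median of 0.99. The count depended on the libraries and on scaling. It was 28, with 2 higher in iWAT, without iWAT522, 2 with iWAT522 as the only iWAT library, and 3 under library size alone. Mrpl42, a large-subunit protein, was at 68.6, 50.4 and 64.1 CPM in iBAT and 14.9, 2.48, 10.05 and 15.5 CPM in iWAT (2.50, SE 0.54, adjusted p = 0.00926) and passed with each library left out in turn.

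Carriers of the inner mitochondrial membrane, the SLC25 family, had 9 of 30 tested members higher in iBAT and 1 in iWAT (41 listed, median 0.79). Slc25a4, the adenine nucleotide carrier, was at 4323, 3562 and 6116 CPM in iBAT and 125, 125, 91.7 and 734 CPM in iWAT (4.12, SE 0.77, adjusted p = 0.00445). Its iWAT522 level was several times that of the other iWAT libraries but below every iBAT library. Slc25a42, which imports coenzyme A, was at 307, 292 and 307 CPM in iBAT and 24.5, 24.04, 18.2 and 67.01 CPM in iWAT (3.17, SE 0.50, adjusted p = 0.00172), and Slc25a34, a carrier of unknown substrate, at 48.02, 22.9 and 67.4 CPM in iBAT and 5.07, 6.44, 0.628 and 2.13 CPM in iWAT (3.60, SE 0.63, adjusted p = 0.00314). The calcium-regulated ATP carrier Slc25a23 also passed (2.07). Slc25a37, or mitoferrin 1, which brings iron to haem synthesis, was the exception, at 53.2, 47.9 and 58.7 CPM in iBAT and 232, 162, 175 and 220.2 CPM in iWAT (-1.89, SE 0.37, adjusted p = 0.00525). All 4 of its iWAT libraries were above all iBAT libraries.

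The tricarboxylic acid cycle, which oxidises acetyl-CoA and supplies NADH, had 9 of 14 tested members higher in iBAT and 0 in iWAT (16 listed, median 1.88). Suclg1, a subunit of succinyl-CoA synthetase, was at 2378, 6280.4 and 2551 CPM in iBAT and 481, 267, 514 and 379.5 CPM in iWAT (3.19, SE 0.49, adjusted p = 0.00158). The lowest iBAT library was above the highest iWAT library for Suclg1. Dlst (2.46), of the oxoglutarate dehydrogenase complex, and Fh1 (2.89), fumarase, also passed. Mdh1, the cytosolic and not the mitochondrial malate dehydrogenase, was at 955, 1243 and 2085 CPM in iBAT and 2119, 1807, 713 and 683 CPM in iWAT, with overlapping depots (0.10, SE 0.52, adjusted p = 0.905).

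The carnitine shuttle and beta-oxidation, which carry fatty acids into mitochondria and cleave them, had 11 of 18 tested members higher in iBAT and 1 in iWAT (20 listed, median 1.99). Etfa, which takes electrons from acyl-CoA dehydrogenases, was at 5637, 10215 and 5929.7 CPM in iBAT and 442, 611, 1294 and 840.4 CPM in iWAT (3.19, SE 0.50, adjusted p = 0.00163). Hadhb, the thiolase subunit of the trifunctional protein, was at 216, 281 and 268 CPM in iBAT and 61.97, 61.7, 28.3 and 23.8 CPM in iWAT (2.53, SE 0.45, adjusted p = 0.00316), and Hadh, the short-chain hydroxyacyl-CoA dehydrogenase, at 1701, 2488 and 1674 CPM in iBAT and 271, 276, 506 and 385 CPM in iWAT (2.44, SE 0.41, adjusted p = 0.00238). In all 3 genes no iWAT library reached the lowest iBAT library. Cpt1a, the liver form of the carnitine acyltransferase that admits fatty acids, was the 1 member higher in iWAT, at 49.3, 38.5 and 82.6 CPM in iBAT and 189, 145, 77.2 and 209.6 CPM in iWAT. Its iWAT518 level lay within the iBAT range (-1.45, SE 0.47, adjusted p = 0.04996), and the call ended without iBAT516, iBAT517, iBAT518, iWAT516 and iWAT517 (-1.27 to -1.81).

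Pyruvate entry into mitochondria had 7 of 12 tested members higher in iBAT and 1 in iWAT (14 listed, median 1.70). The 3 pyruvate dehydrogenase kinases that passed did not share a direction. Pdk4 is given above, and Pdk2 was at 481, 256 and 506 CPM in iBAT and 18.6, 64.7, 29.5 and 81.02 CPM in iWAT (3.09, SE 0.55, adjusted p = 0.00328). Pdk3 was at 0.857, 0.940 and 0.907 CPM in iBAT and 14.1, 14.6, 3.14 and 14.9 CPM in iWAT, higher in iWAT (-3.66, SE 0.68, adjusted p = 0.00399). The kinases brake the pyruvate dehydrogenase complex.

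Glucose uptake and glycolysis had 5 of 14 tested members higher in iBAT and 2 in iWAT (21 listed, median 1.01). Ldhb, the lactate dehydrogenase form of oxidative tissues, was at 3984, 3146 and 2787 CPM in iBAT and 337, 297, 375 and 362 CPM in iWAT (3.27, SE 0.38, adjusted p = 4.78e-04), and its iWAT libraries varied little. Pgam2, the muscle phosphoglycerate mutase, was at 701, 349 and 1293 CPM in iBAT and 2.25, 21.6, 11.3 and 88.9 CPM in iWAT (4.65, SE 1.00, adjusted p = 0.00918), in the library order of the muscle markers within iBAT. Pkm, pyruvate kinase, passed at a low level of the accession counted (14.1, 14.4 and 24.5 against 1.41, 1.98, 0 and 0.609 CPM, log2 difference 3.93). The glucose transporters Slc2a3 and Slc2a1 were higher in iWAT. Slc2a3, a transporter of neurons and leukocytes, was at 3.86, 6.26 and 6.35 CPM in iBAT and 23.7, 34.7, 32.6 and 22.2 CPM in iWAT (-2.35, SE 0.43, adjusted p = 0.00402). Slc2a1, the basal transporter of many cells, was at 9.003, 11.3 and 16.03 CPM in iBAT and 36.3, 71.9, 25.1 and 36.9 CPM in iWAT (-1.81, SE 0.47, adjusted p = 0.021), and its call ended without any of the 3 iBAT libraries (-1.68 to -2.05).

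Fatty acids made from acetyl-CoA are stored as triglyceride. Of 13 listed genes of fatty acid synthesis 11 were tested and 2 were higher in iBAT (median 0.37). Without iWAT522 4 were, and under library size alone 0 were. With iWAT522 as the only iWAT library the median was 0.29. Scd1, the stearoyl-CoA desaturase, was at 24256, 20396 and 23417 CPM in iBAT and 6144, 13684, 17273 and 11089.5 CPM in iWAT, with non-overlapping depots but no call (0.91, SE 0.45, adjusted p = 0.17). Acacb, the acetyl-CoA carboxylase whose product inhibits the carnitine shuttle, passed at 1.87, a call that ended without iBAT516, iBAT517, iWAT516 and iWAT518 (1.498 to 1.94). Triglyceride synthesis had 2 of 8 tested genes higher in iBAT, or 5 without iWAT522 (10 listed, median 1.30). Gpam, the mitochondrial acyltransferase that starts the pathway, was at 29.6, 36.3 and 38.1 CPM in iBAT and 7.61, 10.2, 6.91 and 10.4 CPM in iWAT (1.97, SE 0.38, adjusted p = 0.00472). The other of the 2 was Gpd1, given above.

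Lipolysis and the lipid droplet coat had 6 of 10 tested genes higher in iBAT (17 listed, median 1.44), and 2 with iWAT522 as the only iWAT library. Aqp7, the glycerol channel, was at 177, 271 and 160.0 CPM in iBAT and 25.1, 41.9, 52.1 and 89.2 CPM in iWAT (1.96, SE 0.47, adjusted p = 0.0142), and the call ended without iBAT517 (1.66). G0s2, an inhibitor of the first triglyceride lipase, was at 1027, 350.4 and 962 CPM in iBAT and 186, 283, 190.2 and 371 CPM in iWAT, where the lowest iBAT library was below the highest iWAT library (1.60, SE 0.47, adjusted p = 0.0347). Its call ended without iBAT516, iBAT518, iWAT516, iWAT517 and iWAT518 (1.33 to 1.59). Plin4, a coat protein of white adipocyte droplets, was at 2051, 1157 and 2284 CPM in iBAT and 2923, 1024, 3565 and 6586 CPM in iWAT with overlapping depots (-0.94, SE 0.59, adjusted p = 0.277). Uptake and binding of fatty acids had 2 of 11 tested genes higher in iBAT and 1 in iWAT (14 listed, median 0.57), which are Fabp3, Slc27a2 and Fabp5. These shares are 18.2% and 9.09%, against 9.69% and 11.3% of all tested genes. Fabp4, the abundant adipocyte form, was at 6808, 7408 and 12969 CPM in iBAT and 14765, 19601, 8642 and 10217 CPM in iWAT with overlapping depots (-0.55, SE 0.47, adjusted p = 0.419).

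**Figure D4:**
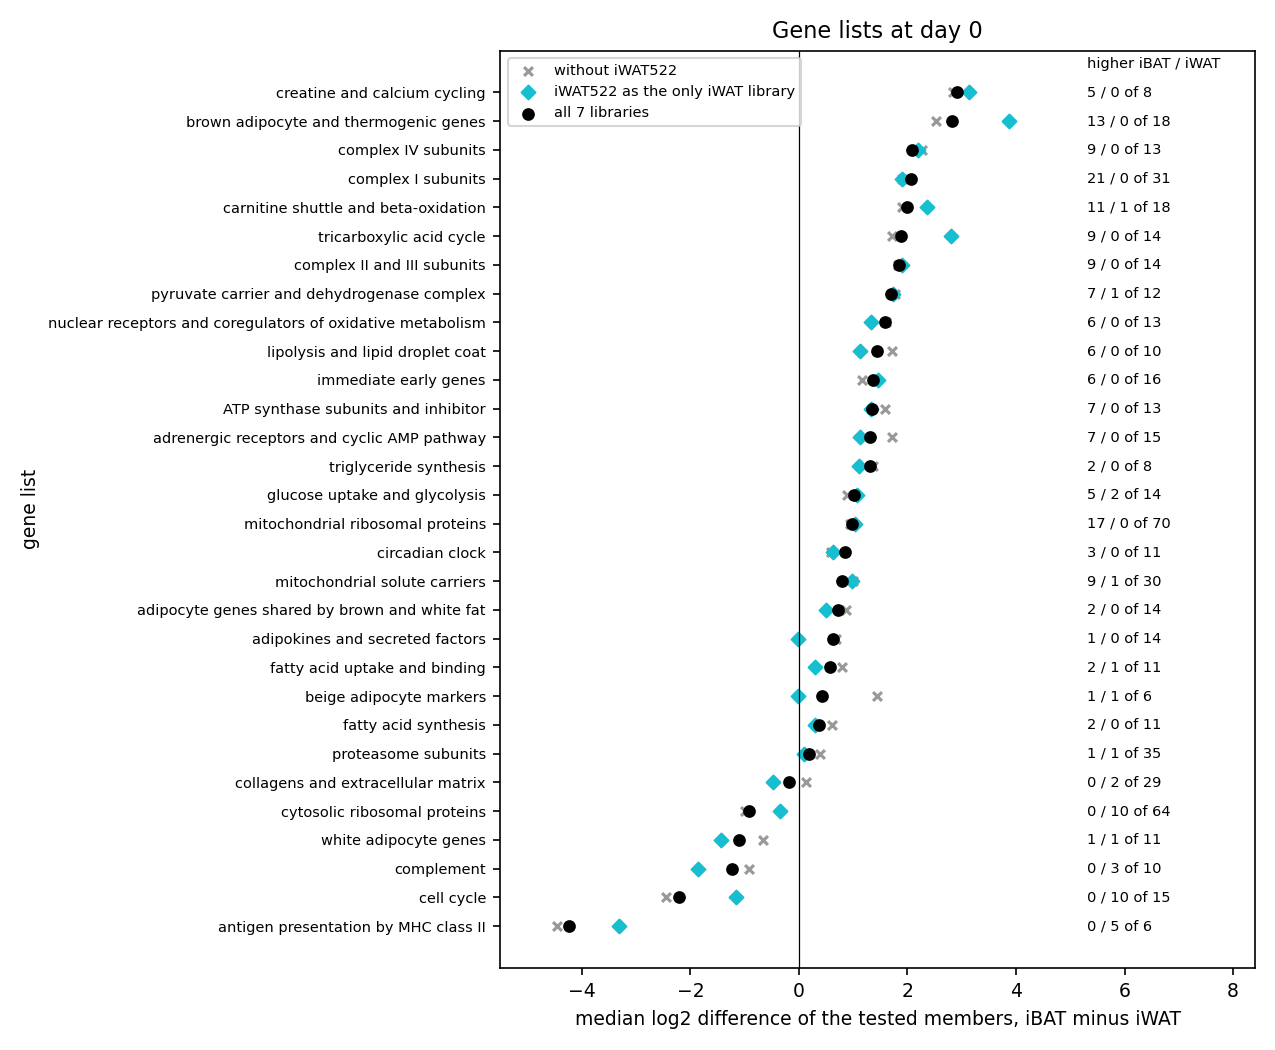
The median log2 difference (iBAT over iWAT) of the tested members of each gene list is shown with all 7 libraries, without iWAT522 and with iWAT522 as the only iWAT library, and the numbers past the test stand at the right. The respiratory chain and fuel oxidation lists have medians between 1.35 and 2.09, while the cytosolic ribosomal list has -0.93 and the cell cycle list -2.22.

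Sympathetic nerves drive brown fat through noradrenaline, its receptors and cyclic AMP. Of 22 listed genes of that pathway 15 were tested, and 7 were higher in iBAT and 0 in iWAT, with a median of 1.31. Among receptors, Adrb1, the beta-1 receptor, was at 83.6, 119 and 62.3 CPM in iBAT and 11.5, 13.1, 10.7 and 9.14 CPM in iWAT (2.98, SE 0.38, adjusted p = 7.35e-04). Adra1a, an alpha-1 receptor, was at 13.3, 18.8 and 14.8 CPM in iBAT and 2.82, 3.72, 1.26 and 2.13 CPM in iWAT (2.58, SE 0.47, adjusted p = 0.00383). Neither gene overlapped between depots. Adrb3, the beta-3 receptor of adipocytes, was at 163, 131 and 246 CPM in iBAT and 186, 415, 119 and 214 CPM in iWAT and did overlap (-0.38, SE 0.48, adjusted p = 0.599). Downstream, Pde4d, which breaks down cyclic AMP, was at 77.6, 74.8 and 122 CPM in iBAT and 9.01, 9.92, 5.65 and 17.4 CPM in iWAT (3.10, SE 0.45, adjusted p = 0.00115). Rgs2, which shortens G-protein signalling, was at 365, 459 and 209.9 CPM in iBAT and 58.6, 82.5, 72.2 and 26.2 CPM in iWAT (2.53, SE 0.47, adjusted p = 0.00438). With iWAT522 as the only iWAT library 4 of the list passed.

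Nuclear receptors and coregulators of oxidative metabolism had 6 of 13 tested members higher in iBAT and 0 in iWAT (26 listed, median 1.58). Perm1, a coactivator partner of muscle and brown fat, was at 50.2, 22.5 and 81.1 CPM in iBAT and 0.563, 3.72, 0.628 and 1.22 CPM in iWAT (4.92, SE 0.70, adjusted p = 0.00112), in the library order of the muscle markers within iBAT. Ppargc1b, a coactivator of mitochondrial genes, was at 72.9, 108 and 66.2 CPM in iBAT and 9.01, 13.1, 13.8 and 11.6 CPM in iWAT (2.80, SE 0.38, adjusted p = 8.48e-04). Its libraries were even within each depot, and the depots did not overlap. Nr4a1, an orphan receptor that is also an immediate early gene, was at 68.6, 247 and 154 CPM in iBAT and 4.51, 7.19, 6.28 and 8.22 CPM in iWAT (4.57, SE 0.52, adjusted p = 4.58e-04). Esrra, an orphan receptor that works with these coactivators, was at 200.2, 267 and 128 CPM in iBAT and 65.1, 35.2, 94.2 and 71.6 CPM in iWAT (1.58, SE 0.43, adjusted p = 0.0264), and its call ended without iBAT516, iBAT517, iWAT516 and iWAT517 (1.27 to 1.54). Pparg, Ppargc1a, Prdm16, Cd36, Lipe and Plin1 had no tested row and were not analysed here.

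Of 24 listed adipokines and secreted factors 14 were tested. Of these, 1 was higher in iBAT (7.14%, against 9.69% of all tested genes), and without iWAT522 4 were. In edgeR, DESeq2 and limma voom 0 were higher in iWAT, and 3 had an unadjusted p below 0.05 in that direction. Nampt, which makes a precursor of NAD and is also secreted, was at 339.5, 301 and 288 CPM in iBAT and 102, 88.5, 50.2 and 135 CPM in iWAT (1.72, SE 0.40, adjusted p = 0.013). The Nampt call ended without iBAT516 (1.62). The others that were tested, Adipoq and Lep among them, did not pass.

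Creatine and calcium cycling are routes by which adipocytes can use ATP without work. Of 16 listed genes 8 were tested and 5 were higher in iBAT (median 2.91). Ckmt2, the muscle-type mitochondrial creatine kinase, was at 866, 972 and 2029.6 CPM in iBAT and 0.282, 20.1, 5.65 and 33.5 CPM in iWAT (6.42, SE 1.07, adjusted p = 0.00249). Alpl, a phosphatase able to act on phosphocreatine, was low and even, at 19.3, 20.04 and 19.1 CPM in iBAT and 5.92, 5.21, 5.02 and 6.09 CPM in iWAT (1.80, SE 0.38, adjusted p = 0.00813). Ckb, the brain-type creatine kinase of adipocytes, was at 104, 53.9 and 57.5 CPM in iBAT and 56.1, 25.3, 67.8 and 178 CPM in iWAT, with overlapping depots (-0.19, SE 0.60, adjusted p = 0.843). Ryr1 (5.96), Atp2a1 (4.92) and Ckm (4.03) are the calcium release channel, calcium pump and creatine kinase of skeletal muscle. Atp2a1 was at 1276, 2866 and 6779 CPM in iBAT and 3.94, 324, 23.2 and 129 CPM in iWAT, and its call ended without iBAT518 (4.12). The summed level of this list was 3654, 5452 and 11441 CPM in iBAT and 100, 880.2, 232 and 580.1 CPM in iWAT. In the muscle list iBAT518 was highest as well, and the part of muscle here was not tested.

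The skeletal muscle list held 22 genes. Of the 20 tested, 19 were higher in iBAT and 0 in iWAT (median 5.08). Between 13 and 19 passed across the settings. Every gene of the list that had a row had counts in at least 1 iBAT library, and 2 of 21 were at 0 in all iWAT libraries. Among the 10 largest differences were Myl2, Myh7, Myl3, Tnnc1 and Myoz2, which slow fibres express. Myl2, a regulatory light chain of slow fibres and heart, was at 1771, 1066 and 2340.5 CPM in iBAT and 0, 0, 0 and 0 CPM in iWAT. The iBAT libraries together had 15272 counts against 0, so it was at least 7181-fold higher in iBAT on a floor of 3 counts over the iWAT group. Myh7, the slow myosin heavy chain, was at 554, 305 and 957 CPM in iBAT and 0, 0.248, 0 and 0 CPM in iWAT, with 5433 counts against 1 and a ratio of 7664 (95% counting interval 1375 to 302782). Myl3 (9.19) and Tnnc1 (8.89) also passed, and Myoz2, a protein of the slow-fibre Z-disc, had a ratio of 743 (254 to 3609).

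Genes of fast fibres included Myh2. This heavy chain of fast oxidative fibres was at 906, 939 and 2188 CPM in iBAT and 0.563, 6.44, 5.65 and 20.4 CPM in iWAT (7.33, SE 0.96, adjusted p = 8.37e-04). Ckm was at 1238, 2108 and 2696 CPM in iBAT and 5.92, 317, 87.9 and 82.5 CPM in iWAT (4.03, SE 0.95, adjusted p = 0.014), and iWAT517 had the highest iWAT level for it. Tnnt3, a fast troponin T whose counted accession was low, was at 2.14, 3.13 and 15.4 CPM in iBAT and 0, 59.7, 5.02 and 31.7 CPM in iWAT and did not pass (-1.80, SE 1.27, adjusted p = 0.334). Vgll2, a transcription cofactor of muscle, and Lmod2, an actin nucleator of striated muscle, also stood among the 10 largest differences. Their values were 48.4, 23.8 and 103 against 0, 0, 0.628 and 0 CPM and 182, 66.4 and 268 against 0, 2.97, 0 and 2.13 CPM. The summed muscle level in iWAT ran from 50.02 CPM in iWAT516 to 3544 CPM in iWAT517. In whole tissue, fewer cells of a type and less RNA per cell cannot be told apart.

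Lymphocyte genes were higher in iWAT. All 8 tested B and plasma cell genes were higher in iWAT (13 listed, median -7.55), as were all 10 tested T and NK cell genes (16 listed, median -6.23, or -6.15 with genes at 0 in iBAT set to their bound). The summed B cell list was at 11.1, 15.98 and 10.1 CPM in iBAT and 3011, 2512, 2823 and 2024 CPM in iWAT, with 3 of 11 genes at 0 in every iBAT library. The T cell list was at 11.1, 18.4 and 3.99 CPM against 1459, 1809, 711 and 384 CPM, with 2 of 12 at 0. Cd79a, of the B cell receptor, was at 3.86, 7.52 and 3.33 CPM in iBAT and 1449.9, 794, 1489 and 768 CPM in iWAT (-7.83, SE 0.64, adjusted p = 1.36e-04). Its iWAT libraries lay far above the iBAT libraries, and iWAT522 was the lowest of them. Cd3e, of the T cell receptor complex, was at 2.57, 0 and 0.605 CPM in iBAT and 182, 173, 22.6 and 35.3 CPM in iWAT (-6.69, SE 1.17, adjusted p = 0.00318), and iWAT516 and iWAT517 held several times the level of the other 2. Cr2, a complement receptor of B cells and follicular dendritic cells, had a ratio of 581 in favour of iWAT (95% counting interval 160 to 4798).

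Genes that give a lymph node its architecture went the same way. All 6 tested stromal and sinus genes were higher in iWAT (12 listed, median -4.54), with summed levels of 8.84, 6.39 and 9.85 CPM against 536, 1507, 1117 and 1059.7 CPM. Ccl19, a chemokine of the T cell zone, was at 0, 0 and 0 CPM in iBAT and 156, 483, 119.9 and 42.9 CPM in iWAT. With 0 counts in iBAT against 2834 it was at least 670-fold higher in iWAT on a floor of 3 counts over the iBAT group. Cxcl13, the chemokine of B cell follicles, was at 4.72, 2.51 and 2.72 CPM in iBAT and 78.6, 293, 139 and 132 CPM in iWAT (-5.60, SE 0.63, adjusted p = 4.58e-04). Marco, a scavenger receptor of medullary sinus macrophages, was at 0, 0.313 and 0 CPM in iBAT and 29.02, 76.8, 413 and 343 CPM in iWAT, with a ratio of 1557 (279 to 61541), or 1030 without iWAT522 (184 to 40714). Ccl22, a chemokine of dendritic cells, had a ratio of 419 (143 to 2033). Marco was highest in iWAT518 and iWAT522, Ccl19 in iWAT517, so the libraries did not share 1 order.

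PU.1 is a transcription factor of B cells and myeloid cells, and a sequence it binds was searched in the same promoter windows. The letters GAGGAAGT, on either strand, were in 6.15% of promoter windows of genes higher in iWAT (58 of 943), 1.88% of those higher in iBAT, 2.95% of those of all tested genes and 3.20% of all promoters. Of the windows of tested lymphocyte and MHC class II genes 1 of 22 held them. No test was made of these shares. The 250 bases before the start of Cd37, a tetraspanin of B cells, and of Cd5, a receptor of T cells, are printed as 2 of these 58, since both genes were higher in iWAT (-6.59 and -6.31). They lie at chr7:45238840-45239089 and chr19:10738975-10739224 of GRCm38.p6, both on the minus strand, from RefSeq, written in the direction of the gene with the match in capitals (for Cd37 the match is on the opposite strand).
Cd37: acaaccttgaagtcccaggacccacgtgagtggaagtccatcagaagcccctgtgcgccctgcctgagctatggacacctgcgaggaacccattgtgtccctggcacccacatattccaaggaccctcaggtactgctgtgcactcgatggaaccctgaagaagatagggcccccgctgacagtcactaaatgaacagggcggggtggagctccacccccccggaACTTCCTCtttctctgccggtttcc
Cd5: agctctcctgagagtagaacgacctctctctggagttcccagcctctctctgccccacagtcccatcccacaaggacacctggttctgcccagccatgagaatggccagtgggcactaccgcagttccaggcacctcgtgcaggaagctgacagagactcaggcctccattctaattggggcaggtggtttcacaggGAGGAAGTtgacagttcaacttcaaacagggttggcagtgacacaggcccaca

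Antigen presentation and macrophage genes overlapped with these cells in part. Of 10 listed MHC class II genes 6 were tested and 5 were higher in iWAT (median -4.24). H2-Ob, a class II chaperone of B cells, was at 3.86, 4.07 and 0.907 CPM in iBAT and 442, 584, 521 and 320.1 CPM in iWAT (-7.31, SE 0.66, adjusted p = 2.02e-04). H2-Ab1, a classical class II chain, was at 22.7, 83.3 and 33.9 CPM in iBAT and 1494, 1481, 1977 and 281 CPM in iWAT (-4.81, SE 0.80, adjusted p = 0.00235), with iWAT522 the lowest iWAT library. For its partner chain H2-Aa iWAT522 was the highest, at 287, 274 and 180.2 CPM in iBAT and 510.2, 564, 340.3 and 2319.8 CPM in iWAT (-1.92, SE 0.68, adjusted p = 0.0682). Of 12 listed macrophage genes 8 were tested and 3 were higher in iWAT (median -1.23), and their summed levels were 151, 113 and 141 CPM against 998, 2252, 1318 and 1139 CPM. Lyz1, a lysozyme, was at 114, 66.1 and 85.6 CPM in iBAT and 861, 1731, 985 and 749 CPM in iWAT (-3.61, SE 0.49, adjusted p = 8.87e-04). This 1 gene made up most of the summed level in every iWAT library. Lyz2, another lysozyme, did not pass (-2.35, SE 0.82, adjusted p = 0.0666), and the split of reads between the 2 was not checked. Of the 8 tested genes 6 had negative differences and 2 positive ones, Adgre1 (0.58) and Cd14 (0.38), which did not pass. Mrc1, a mannose receptor of resident macrophages, was at 25.3, 19.1 and 36.9 CPM in iBAT and 18.9, 32.5, 57.8 and 60.9 CPM in iWAT with overlapping depots (-0.64, SE 0.48, adjusted p = 0.361). Timd4, a receptor of resident macrophages also found in lymph node sinuses, was at 1.71, 0 and 0.907 CPM in iBAT and 25.1, 41.9, 126 and 98.4 CPM in iWAT (-6.40, SE 0.94, adjusted p = 0.00131).

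**Figure D5:**
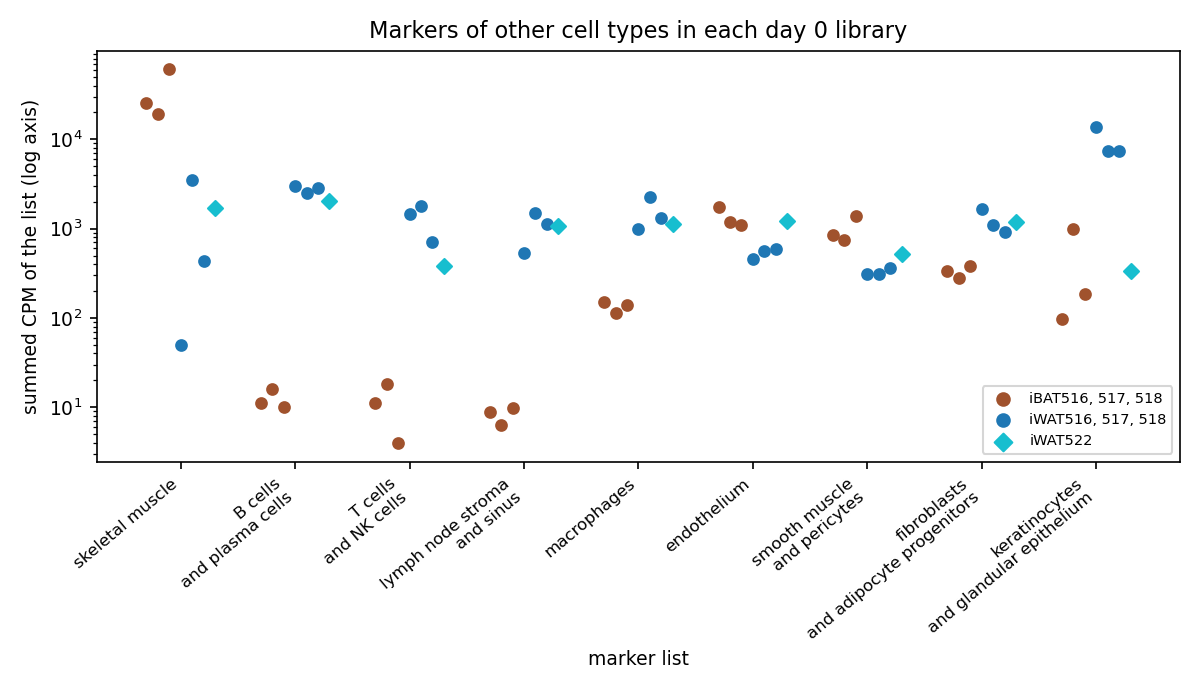
Summed levels of marker lists of other cell types, in CPM of the plain total count on a log axis, are shown as 1 point per library, with iWAT522 as a diamond. Muscle sums reach 60732 CPM in iBAT, and the B cell and lymph node sums are at or below 15.98 CPM in every iBAT library. The keratin sum drops from 7452 CPM or more in 3 iWAT libraries to 335 CPM in iWAT522. That drop is the drop of Krt17, which was at 13642, 7082, 7406 and 98.4 CPM of the plain total in iWAT. Of the other members, Krt8, Krt18, Krt19 and Epcam were highest in iWAT522, and others such as Krt5 and Krt14 in iWAT517.

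Genes of dividing cells were read next. Of 23 listed cell cycle genes 15 were tested, and 10 were higher in iWAT and 0 in iBAT (median -2.22). Without iWAT522 13 were, and with iWAT522 as the only iWAT library 0 were. Ccna2, the cyclin of S and G2 phase, was at 2.14, 4.07 and 0.907 CPM in iBAT and 53.5, 29.3, 21.98 and 7.61 CPM in iWAT (-3.54, SE 0.76, adjusted p = 0.00893). Its iWAT522 level was the lowest in iWAT but above all iBAT libraries. The summed level of the list was 964, 742, 525 and 279.8 CPM in iWAT and 116, 152 and 109.7 CPM in iBAT. The library iWAT522 was the lowest iWAT library in this sum and in the T cell sum. The part of lymphocytes in the cell cycle difference was not tested.

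Complement genes, which adipose stroma and macrophages secrete, had 3 of 10 tested members higher in iWAT (15 listed, median -1.23). Serping1, the C1 inhibitor, was at 26.2, 20.04 and 29.9 CPM in iBAT and 145, 96.4, 145 and 112 CPM in iWAT, with the depots far apart (-2.29, SE 0.39, adjusted p = 0.00269). C1ra (-1.75) and Cfp (-1.66) also passed. Their calls ended without iBAT516, iBAT517, iBAT518 and iWAT517 for C1ra (-1.66 to -2.01) and without the 3 iBAT libraries in turn for Cfp (-1.46 to -1.88). Cfd, the adipsin of white adipocytes, was at 543, 164 and 531.7 CPM in iBAT and 1418, 392, 1084 and 1086 CPM in iWAT with overlapping depots (-1.27, SE 0.56, adjusted p = 0.135).

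Vascular and connective tissue genes had calls in both directions. Of 14 listed endothelial genes 10 were tested, 3 higher in iBAT (5 without iWAT522) and 1 in iWAT (median 1.15). Tek, the angiopoietin receptor, was at 96.5, 67.96 and 62.6 CPM in iBAT and 27.9, 20.3, 32.6 and 19.2 CPM in iWAT (1.60, SE 0.37, adjusted p = 0.0128), and its call ended without iBAT516 (1.36). Cdh5, the cadherin of endothelial junctions, was at 947, 522.4 and 534.99 CPM in iBAT and 88.2, 61.2, 47.7 and 484 CPM in iWAT, with iWAT522 near iBAT (1.97, SE 0.76, adjusted p = 0.0903, and 3.33 with adjusted p = 1.10e-04 without iWAT522). Vwf, the clotting factor carrier of larger vessels, was higher in iWAT at 2.14, 5.01 and 5.44 CPM in iBAT and 25.4, 11.7, 17.6 and 13.7 CPM in iWAT (-1.99, SE 0.51, adjusted p = 0.0197), a call that ended without iBAT516, iBAT517, iBAT518 and iWAT516 (-1.73 to -2.20). Of 12 smooth muscle and pericyte genes 9 were tested, 2 were higher in iBAT and 0 in iWAT, where 2 had an unadjusted p below 0.05 and DESeq2 called 2. Rgs5, a pericyte gene, was at 99.03, 106 and 78.6 CPM in iBAT and 23.9, 12.9, 32.02 and 31.4 CPM in iWAT (1.92, SE 0.41, adjusted p = 0.00826), and Des, which muscle shares, had a difference of 4.26.

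Fibroblast and adipocyte progenitor genes had 4 of 9 tested members higher in iWAT and 1 in iBAT (12 listed, median -1.48). Dpp4, a surface protease of interstitial progenitors, was at 5.14, 3.13 and 9.07 CPM in iBAT and 79.2, 60.7, 80.4 and 85.9 CPM in iWAT, with even iWAT libraries (-3.71, SE 0.48, adjusted p = 7.51e-04). Icam1, an adhesion receptor of committed preadipocytes and leukocytes, was at 7.29, 4.70 and 4.54 CPM in iBAT and 61.7, 72.6, 75.3 and 48.4 CPM in iWAT (-3.55, SE 0.43, adjusted p = 5.14e-04), and Thy1, shared by fibroblasts and T cells, at 11.6, 19.7 and 16.6 CPM in iBAT and 780.0, 280.1, 257 and 244 CPM in iWAT (-4.60, SE 0.60, adjusted p = 8.26e-04). In Dpp4 the iWAT libraries differed by less than their distance from iBAT, and iWAT522 was not apart. Thy1 was highest in iWAT516, whereas the summed T cell level was highest in iWAT517, at 1809 CPM. Collagens and matrix genes had 0 of 29 tested members higher in iBAT and 2 in iWAT (37 listed, median -0.18). The 2 are 6.90% of the list, against 11.3% of all tested genes. Without iWAT522, 3 members were higher in iBAT and 4 in iWAT, with a median of 0.14. Timp2, a metalloproteinase inhibitor, passed (-1.59), a call that ended without iBAT516 and iBAT517 (-1.38 to -1.57). So did the metalloproteinase Mmp3 (-2.37), whose call ended without any 1 of the 6 libraries other than iWAT522 (-1.89 to -2.80). Sparc, a collagen-binding protein, was at 4214, 4683 and 3843 CPM in iBAT and 2286, 1372, 4485 and 3834 CPM in iWAT (0.50, SE 0.47, adjusted p = 0.462). Of 5 tested Schwann cell and nerve genes (12 listed) 0 passed in edgeR, 1 had an unadjusted p below 0.05, and DESeq2 and limma voom each called 1 higher in iBAT.

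Keratin and gland genes had 3 of 13 listed members tested and 2 higher in iWAT. Krt17, a keratin of skin appendages and glands, was at 99.5, 1143 and 199.6 CPM in iBAT and 13136, 6001, 7027 and 84.98 CPM in iWAT. The levels in iWAT516, iWAT517 and iWAT518 were far above the others and iWAT522 was below every iBAT library, so the 2 depots overlapped (-3.77, SE 1.35, adjusted p = 0.0711). Without iWAT522 the difference was -4.19 (adjusted p = 0.00102), and with iWAT522 alone it was 2.51. Of the sperm and epididymis list 1 of 14 genes was tested. Tnp2, a sperm nuclear protein, was at 0, 0 and 0 CPM in iBAT and 10.7, 2.48, 15.1 and 279.6 CPM in iWAT, with 0 counts in iBAT. It was at least 234-fold higher in iWAT on a floor of 3 counts over the iBAT group, and at least 23.1-fold without iWAT522, which held 918 of its 990 counts. The call ended without any 1 of the 3 iBAT libraries, among the 6 fits with 1 library left out in which Tnp2 could be tested. The list was at 0 to 0.266 CPM in iBAT and at 125, 9.65, 126 and 982 CPM in iWAT.

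Haemoglobin genes are a sign of blood left in the tissue. Hba-a1 was at 20.1, 16.6 and 14.5 CPM in iBAT and 5.63, 2.23, 2.51 and 6.09 CPM in iWAT (2.02, SE 0.49, adjusted p = 0.0147). Hba-a2 is almost identical to it, so the split of reads between them is uncertain, and its call (2.26) ended without any 1 of the 6 libraries other than iWAT522 (1.93 to 2.32). The levels were low in every library, and the summed red cell list was 30.9, 24.8 and 24.8 CPM in iBAT and 9.07 CPM or less in 3 iWAT libraries, with 14.8 CPM in iWAT522. The Hba-a1 call ended without iBAT516 (1.86).

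Cytosolic ribosomal proteins build the ribosome of the cytoplasm. Of 69 listed 64 were tested, and the median was -0.93. In this list 10 were higher in iWAT (15.6%, against 11.3% of all tested genes) and 0 in iBAT. The count was 24 without iWAT522, 23 under library size alone and 3 with iWAT522 as the only iWAT library. The summed level was 34431, 40286 and 34443 CPM in iBAT and 126340.0, 119664, 98408 and 78415 CPM in iWAT. Rpl17 was at 1083, 1735 and 1198 CPM in iBAT and 6470.4, 3139.7, 7312 and 2849 CPM in iWAT (-1.88, SE 0.50, adjusted p = 0.023), and its call ended without iBAT516, iBAT518 and iWAT516 (-1.76 to -1.80). Rps29 was at 511, 2681 and 685 CPM in iBAT and 21011, 16543, 14752 and 297 CPM in iWAT, so that its level in iWAT522 was below every iBAT library and its difference did not pass with it (-3.35, SE 1.15, adjusted p = 0.0617). The proteasome list had 35 of 38 members tested, 1 higher in iBAT (7 without iWAT522) and 1 in iWAT (median 0.19). The latter was Psmb8, an immunoproteasome subunit of leukocytes, at 37.7, 24.1 and 21.2 CPM in iBAT and 123, 126, 76.6 and 51.5 CPM in iWAT (-1.77, SE 0.46, adjusted p = 0.0207), whose call ended without iBAT517, iBAT518 and iWAT516 (-1.60 to -1.73).

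Genes that react to time of day and to handling were also read. Of 16 listed clock genes 11 were tested and 3 were higher in iBAT (median 0.85), and 0 were under library size alone. Nr1d1, a repressor in the clock, was at 287, 270.0 and 284 CPM in iBAT and 69.3, 76.1, 96.7 and 159 CPM in iWAT (1.48, SE 0.39, adjusted p = 0.023), and leaving out any library other than iWAT522 ended its call (1.32 to 1.49). Of 20 listed immediate early genes 16 were tested and 6 were higher in iBAT (median 1.36), and 2 with iWAT522 as the only iWAT library. Dusp1, a phosphatase induced within minutes of a stimulus, was at 246, 615 and 224 CPM in iBAT and 31.8, 63.2, 45.2 and 73.4 CPM in iWAT (2.76, SE 0.49, adjusted p = 0.0032). Jun, a subunit of the AP-1 factor, was at 292, 835 and 456 CPM in iBAT and 39.7, 85.8, 94.8 and 104 CPM in iWAT (2.71, SE 0.49, adjusted p = 0.00358). In both, iBAT517 held the highest level and no iWAT library reached the lowest iBAT library. Egr1 was at 1257, 1704 and 245 CPM in iBAT and 288, 235, 203 and 157 CPM in iWAT, with iBAT518 inside the iWAT range (2.27, SE 0.58, adjusted p = 0.0194), and the call ended without iBAT516, iBAT517, iWAT517 and iWAT518 (1.71 to 2.23). Time of killing is not given in the labels, and the part of handling in these results was not tested.

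Rows found in only 1 table were outside the fit. Of 332 rows of the iBAT table alone, 3 had at least 5 counts in all 3 iBAT libraries, and of 2817 rows of the iWAT table alone, 15 had at least 5 in all 4 iWAT libraries. Besides Zic1 the iBAT rows were Atp1b4 (15, 7 and 39 counts), an ATPase-like protein of muscle, and Tecrl (8, 8 and 5 counts), a reductase-like protein of heart and muscle. Among the iWAT rows were Glycam1 (755, 1536, 545 and 1130 counts), a ligand of L-selectin on the high endothelial venules of lymph nodes. Pax5 (63, 20, 11 and 23) and Bcl11a (102, 287, 51 and 20) are transcription factors of B cells. Cd207 (38, 14, 6 and 8), or langerin, marks skin dendritic cells. Epcam had 19, 20, 10 and 159 counts and marks epithelium.

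The same depots were also compared after 2 and 4 days at 4 °C, with other libraries of these depots (7 at day 2 and 8 at day 4). Of 8604 genes tested at day 2, iBAT had the higher level in 713 (8.29%) and iWAT in 911 (10.6%). Of 8814 tested at day 4, these numbers were 303 (3.44%) and 499 (5.66%). Of the 888 genes higher in iBAT at day 0, 843 were tested at day 2. Of these, 779 (92.4%) had the same sign, against 50.1% of all tested genes, and 354 passed again in that direction and 0 in the other. Their median was 1.24 at day 2 against 2.09 at day 0 for all 888. At day 4 the sign was kept in 787 of 823 (95.6%, against 43.6% of all tested genes), and 229 passed again with 0 in the other direction. Of the 1039 genes higher in iWAT, 822 of 899 (91.4%) kept their sign at day 2 and 935 of 952 (98.2%) at day 4, against 49.9% and 56.4% of all tested genes. In that group 571 and 414 passed again, and 1 gene passed in the other direction at each day. Their medians were -2.67 and -2.71, against -2.89 at day 0.

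The differences of single genes are given in the order of the days. The Ucp1 difference was 5.17 at day 0, 1.88 at day 2 and 3.09 at day 4. That of Cidea was 4.49, 1.76 and 2.83, and that of Pdk4 4.39, 1.60 and 2.72. That of Hoxa5 was 2.18, 3.03 and 2.27, and that of Hoxc10 -8.97, -10.91 and -7.61. All 5 kept their directions. The brown adipocyte list had 12 of 18 tested members higher in iBAT at day 2 (median 2.18) and 9 at day 4 (median 2.28). Complex I had 14 of 31 at day 2 (median 1.61) and 2 at day 4 (median 1.04). Muscle genes had 18 of 18 at day 2 and 15 at day 4, and B cell genes had all 8 higher in iWAT at both days. Whether a difference changed between days was not tested.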

How the data were processed

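RNA-seq counts of 31 libraries were used, and 7 of them form the comparison. The authors deposited 1 table per depot of raw counts per RefSeq accession, and missing values were read as 0. Reads were processed with cutadapt and BWA on mm10, per the submitters' processing notes; versions, counting step, annotation and strand use are not given in the sources used here. The iBAT table had 13933 rows, the iWAT rows numbered 16418, and 13601 were in both and were joined by accession. Rows of the iWAT table alone held at most 0.392% of an iWAT library's counts. Symbols came from RefSeq GRCm38.p6 (13402) or GENCODE M21 (72), 127 rows had none, and 586 share a symbol.

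Tests used R 4.3.3 and edgeR 4.0.16 on the 7 libraries: TMM scaling, filterByExpr (minimum count 10, minimum total 15), a robust two-sided quasi-likelihood test, Benjamini-Hochberg adjustment over 9164 genes, and a threshold of 0.05. Each SE was derived from the log2 difference and its F value. DESeq2 1.42.0, limma 3.58.1 voom and other alternatives made 16 settings in all. The fits were tested on simulated data. Marker sums use unscaled library totals and every list member with a row. The common biological coefficient of variation was 0.493, and replicate pairs differed by a chi-square per degree of freedom of 28.2 to 131, so counting intervals cover counting error only.

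The members and lists were chosen with earlier results of these data known. Named genes were a fixed set, the 10 largest differences in each direction with a group mean of at least 20 CPM and no overlap, up to 4 members per list past the test by size with the highest-expressed member not past it, all tested Hox genes and both members of each isoform pair; not all are printed. Elovl3, Dio2, Slc25a37, Adrb3, Slc2a1, Alpl, Esrra, Acadm, Cd37, Cd5, Prm1, Krt8 and Tcf21 and the rows of 1 table were named after their values were seen.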

Additional observations from a re-analysis of the deposited data

Results flagged for a closer look

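In 18 of the 154 named genes, 1 of the 4 iWAT libraries lay apart from the other 3 by more than Dixon's 95% critical value. That value assumes normally distributed levels, which was not checked for these CPM, so no share by chance is given. The library was iWAT522 in 12 of them. Its level was higher than in the other iWAT libraries in each, at 4964 CPM for Adipoq, 2580.5 for Ndufb9, 2319.8 for H2-Aa, 734 for Slc25a4, 484 for Cdh5 and 279.6 for Tnp2. It was 107.5 CPM for Cebpb, 67.0 for Slc25a42, 42.3 for P2rx5, 16.4 for Hoxa4, 13.1 for Hoxc4 and 5.79 for Hoxa2. Levels were compared in CPM and not as logs, which flags high levels more readily than low ones. Low iWAT522 levels were thus missed. Cox8b, at 1063, 881, 713 and 16.4 CPM in iWAT, and Krt17, at 13136, 6001, 7027 and 84.98 CPM, were not flagged.

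In iWAT517, Dio2 (13.4 CPM) and Hoxc6 (21.3 CPM) were above the other iWAT libraries, and Myh7 had its 1 iWAT count there (0.248 CPM). In iWAT516, Thy1 was above the others at 780.04 CPM. In iWAT518, Pdk3 was below the others at 3.14 CPM, and Vgll2 had its 1 iWAT count there (0.628 CPM). For Myh7 and Vgll2 a single read sets the whole range, so these 2 say nothing of the spread between libraries.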

How the results depend on the processing

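The numbers of called genes moved most with the libraries used. With each library left out in turn, 971 to 3354 genes were called, 452 to 1665 of them higher in iBAT and 519 to 1689 higher in iWAT, with the lowest numbers without iBAT518 and the highest without iWAT522. With iWAT522 as the only iWAT library 1144 were called, 352 of them higher in iBAT. Library size alone gave 558 and 1566. The label number as a replicate block on the 3 shared numbers gave 1399 genes higher in iBAT; it also leaves out iWAT522, without which 1665 were higher in iBAT with no block. Deviations of same-numbered libraries correlated at -0.212 (iBAT516 with iWAT516), 0.0224 (iBAT517 with iWAT517) and -0.280 (iBAT518 with iWAT518), and they were treated as unpaired. RLE scaling, no filter, DESeq2, limma voom, rows of either table and a fit of all 31 libraries kept both directional numbers within 1.5 times.

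For the 154 named genes, 2188 of the alternative values kept direction and side of the threshold, 208 fell below it, 35 rose past it and 23 changed sign. Signs changed only in genes that did not pass, apart from Mmp3. With iWAT522 as the only iWAT library the values were -0.77 (Adipoq), 2.51 (Krt17), 0.25 (Mmp3) and 2.12 (Rps29). Under library size alone they were -0.25 (Cox6b1), -0.25 (Mdh1) and -0.27 (Ndufa1). With the replicate block they were 0.58 (Ckb), -0.58 (Cox6b1), 0.33 (Hoxb6), -0.0909 (Mdh1), -0.42 (Ndufa1) and 0.023 (Ucp2). In limma voom Ckb was 0.093. With each library left out in turn, Ckb ran from -0.57 to 0.53, Cox6b1 from -0.79 to 0.44, Mdh1 from -0.26 to 0.39, Ndufa1 from -0.50 to 0.34 and the Cox8b to Cox8a log2 ratio difference from -0.70 to 1.65. The cause was not tested. The library iWAT518, with 1.51 M counts, limits what can be detected in genes of low count.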
